A study of Drosophila melanogaster with 4 samples.

Results

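The regions described here are the NURF301-enriched regions that lie off the large chromosome arms of Drosophila melanogaster: those on chromosome 4, on the assembled heterochromatic sequences 2LHet, 2RHet, 3LHet, 3RHet, XHet and YHet, and on the unplaced sequence U. They were taken by sequence name alone, with no measured value, from the 3 deposited lists of enriched regions, a list per chromatin immunoprecipitation (ChIP) replicate and a further list for the pair, called the combined list here. Replicate 1 held 140 such regions of 5576 (2.51%), replicate 2 held 150 of 6320 (2.37%) and the combined list held 268 of 8224 (3.26%). Of the 268, chromosome 4 carried 75, the heterochromatic sequences 100 and U 93.

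Per the labels, the chromatin came from whole Oregon-R embryos (Oregon-R-modENCODE, genotype wild type) aged 14 to 16 h, from flies kept in population cages, and was fixed in 1.8% formaldehyde and held with the NURF301 antibody Q2602 for 15 h. The 4 libraries were 2 ChIP samples and 2 inputs (the starting chromatin sequenced without antibody), and input replicate 1 serves ChIP replicate 1 as input replicate 2 serves ChIP replicate 2. All libraries share strain, genotype and age, so no pair of conditions is compared. Whether the replicates are separate collections of embryos is not in the labels. Whole embryos mix many cell types, no precipitation with a control antibody was analysed here, and lists of regions give no way to check the labelled stage.

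NURF moves nucleosomes along DNA with its ATPase, ISWI. Its largest subunit, NURF301, whose human counterpart is BPTF, holds the complex together and carries domains that recognise modified histone tails and sequence-specific factors. Most of the genome off the large arms is heterochromatin, compact chromatin that is rich in repeated DNA and marked by the protein HP1. Chromosome 4 is an intermediate case: it is small and largely covered by HP1, yet it carries active genes among its repeats, and the protein POF coats it. The Het sequences are scaffolds that could be assigned to the heterochromatin of a chromosome arm but not joined to it, and U is a concatenation of scaffolds with no assigned chromosome, so that order along these sequences has limited meaning. No gene annotation of FlyBase r5, the genome build named in the file headers, was used here, and regions are named by position.

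Each region has a score, which like the coordinates is the authors' own value, read here as the log2 ratio of ChIP to input reads after one scaling constant per list, so that a score of 1 is a doubling. From that reading the pair of counts behind each score can be recovered, but in lowest terms only, since a common factor of both counts cancels. The recovered counts are therefore lower bounds, and 95% exact (Clopper-Pearson) intervals made from them are the widest that counting error allows and cover counting error only. Total read numbers are not in the lists, so depth is known only inside regions. Estimated from the recovered counts, typical input density on chromosome 4 was 125 reads per kb (replicate 1), 151 (replicate 2) and 274 (combined list), against 103, 129 and 228 on the autosome arms. With 2 replicates, an exact two-sided permutation of signs cannot give a p below 0.5, so values are set side by side with their replicate SD and no difference between sequences is tested.

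The sequences fell into a dense and a sparse class. Chromosome 4 had 40.7 regions per Mb in replicate 1 and 43.6 in replicate 2, a mean of 42.2 ± 2.09 (SD, n = 2), and the large arms together had 48.8 ± 4.36 (SD, n = 2). XHet, the only heterochromatic sequence in the dense class, had 44.1 and 49.0 regions per Mb, a mean of 46.5 ± 3.46 (SD, n = 2). The other heterochromatic sequences ranged from 0 on YHet to 8.41 ± 1.38 on 3LHet (SD, n = 2), with 5.42 in both replicates on 2LHet, 5.17 in both on 2RHet and 4.17 ± 0.28 on 3RHet. U had 2.69 and 2.79 regions per Mb, fewer than each of these except YHet. The lists do not give how much of each sequence reads can be mapped to, and its part in these densities was not tested.

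**Figure D1:**
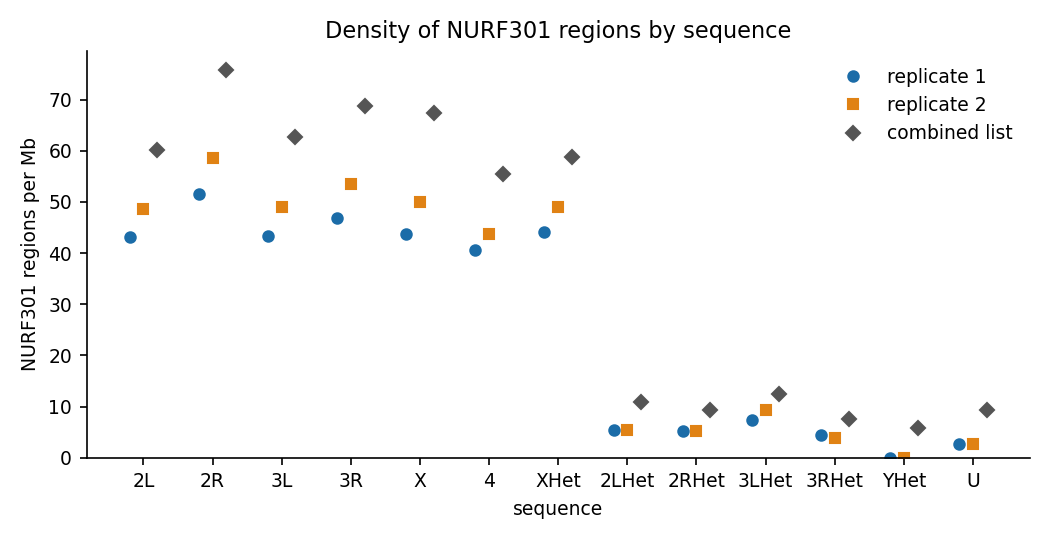
Regions per Mb of listed sequence (y axis) for each sequence (x axis), in replicate 1 (circles), replicate 2 (squares) and the combined list (diamonds). Chromosome 4 and XHet sit at 40.7 to 49.0 in the replicates, near the large arms, while the other heterochromatic sequences and U stay at 9.39 or below there.

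By covered length the same classes appeared. Regions took up 11.2% of chromosome 4 in replicate 1 and 12.5% in replicate 2, beside 10.7% and 13.1% of the large arms. On XHet they covered 8.90% and 10.3%. Coverage was 1.34% and 1.39% on 2RHet, 1.88% and 2.27% on 3LHet, 1.13% and 1.12% on 3RHet, 2.44% and 2.70% on 2LHet, and 0.55% and 0.59% on U. The combined list raised the count of U the most, from 27 and 28 regions to 93, and its covered share to 1.51%.

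The replicate lists and the combined list were then matched to ask which regions were found repeatedly. Over the whole combined list, 61.6% of regions overlapped a region of each replicate by at least 1 bp. On chromosome 4 this held for 48 of 75 regions, or 64.0% (Wilson 95% interval 52.7% to 73.9%), which is near the whole-list share. On the heterochromatic sequences it held for 53 of 100, or 53.0% (43.3% to 62.5%), and on U for 19 of 93, or 20.4% (13.5% to 29.7%). The U share depended on which regions were counted: it was 39.6% of the 48 that were at least 1301 bp wide, the narrowest width in the replicates, and 31.7% of the 60 with more than 10 input reads in lowest terms, a limit chosen after seeing the data. Among single heterochromatic sequences the counts were 9 of 12 on XHet, 17 of 32 on 3LHet, 16 of 31 on 2RHet, 9 of 19 on 3RHet, 2 of 4 on 2LHet and 0 of 2 on YHet. Regions held by neither replicate numbered 14 on chromosome 4 (18.7%), 36 on the heterochromatic sequences (36.0%) and 60 on U (64.5%), beside 20.9% of the whole list.

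Matching the replicate lists to each other gave a smaller spread between sequences. Of all replicate 1 regions 94.1% overlapped a replicate 2 region, and of all replicate 2 regions 81.2% overlapped a replicate 1 region. Chromosome 4 had 50 of 55 (90.9%) and 49 of 59 (83.1%), and the heterochromatic sequences had 54 of 58 (93.1%) and 55 of 63 (87.3%). U had 19 of 27 (70.4%) and 19 of 28 (67.9%). Of the 17 replicate 1 regions and 27 replicate 2 regions without a partner, 4 and 2 were also missing from the combined list.

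Chromosome 4 is taken first. Its regions spread over nearly the whole sequence: in the combined list the first began at 3262 and the last ended at 1323710 of 1351857 bp. Before and after its midpoint lay 25 and 30 regions in replicate 1 and 28 and 31 in replicate 2. Neighbouring regions were separated by a median gap of 13622 bp in replicate 1. The corresponding gaps were 11969 bp for replicate 2 and 11042 bp for the combined list. The largest gap in both replicates was at the same place, 232011 to 325679 in replicate 1 and 232118 to 327619 in replicate 2. The combined list placed a single region inside it, named after its value was seen, at 273356 to 274694. It scored 0.25 and had no partner in either replicate. In the combined list the largest gap, 63511 bp, ran from 743520 to 807032.

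Occupancy along chromosome 4 was uneven in the same way in both replicates. When the sequence was cut into 10 equal parts of 135 kb, the fourth had 16.1% of its length in regions in replicate 1 and 22.3% in replicate 2. The eighth had 18.0% and 19.8%. The seventh had the lowest share, 6.99% and 5.97%, and the first, the third and the fifth had 7.46% to 8.75% in replicate 1 and 8.65% to 8.71% in replicate 2. In neither replicate did the part with the most regions have the highest median score. The fourth held 8 and 11 regions with median scores of 0.70 and 0.61. The eighth held 9 in each replicate, with medians of 0.83 and 0.96. The second held 6 and 5, with medians of 0.92 and 1.101. The highest medians were 1.02 in the sixth part in replicate 1 and 1.105 in the third in replicate 2, over 5 and 4 regions.

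**Figure D2:**
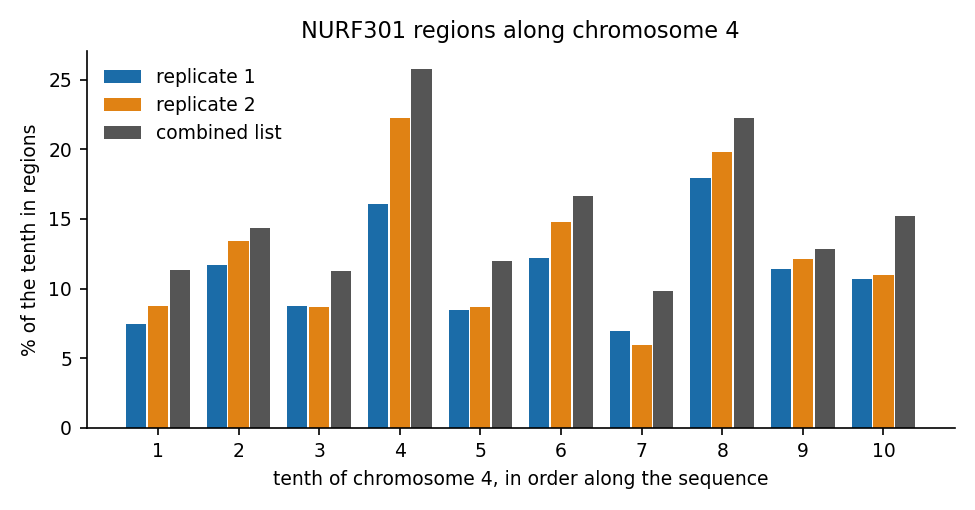
Share of chromosome 4 covered by regions (y axis, %) in each of 10 equal parts in order along the sequence (x axis), for replicate 1, replicate 2 and the combined list. The fourth and the eighth part are the most covered in all 3 lists, at 16.1% to 25.8%, and the seventh is the least, at 5.97% to 9.85%.

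Scores on chromosome 4 had a median of 0.81 in replicate 1, with a range of 0.30 to 1.64, and of 0.90 in replicate 2, with a range of 0.12 to 1.48. The large arms had medians of 0.69 and 0.72. The median width was 2533 bp and 2515 bp, beside 2172 bp and 2263 bp on the large arms. Higher-scoring regions tended to be wider, with Spearman's rho of 0.64 over 55 regions in replicate 1 and 0.60 over 59 in replicate 2. These are descriptions across regions of one library, and the large arms had 0.79 and 0.78.

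The strongest region of chromosome 4 found in both replicates lay at 433636 to 438188. It scored 1.64 in replicate 1 and 1.32 in replicate 2, and its combined score of 1.30 ranked 191 of 8224. Replicate 1 was the higher of the pair. For the test, recovered counts on chromosome 4 and the arms were multiplied by whole numbers toward the typical input density. Over all paired regions of the genome (n = 5115 pairs) this difference then had the smallest p. It was 4.05e-05 by a normal approximation on the scaled counts. The Benjamini-Hochberg adjusted p of 0.207 did not pass the threshold of 0.05. Both the p and its rank depend on that scaling, which the lowest terms cannot check.

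The second, at 679144 to 685670, was also the second widest, at 6527 bp. Its scores were 1.10 in replicate 1 and 1.36 in replicate 2, and 1.22 over the replicate set. It was a single region in each list. The fourth by combined score, at 377854 to 382050, scored 1.14 and 1.29, with 1.20 in the combined list, and the fifth, at 977394 to 982690, scored 1.25 and 1.37, with 1.15 in the combined list. All of these exceeded 4 kb in width, and their interval in the combined list was narrow, for example 1.06 to 1.37 at 679144.

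The third by combined score differed from these in the counts behind it. At 1315716 to 1317894, near the end of the sequence, it scored 1.41 in replicate 1 and 1.48 in replicate 2. Both replicate scores stood for 3 over 1 in lowest terms, and the combined score of 1.21 stood for 28 over 11, with an interval of 0.16 to 2.36. The agreement of the replicates, a mean of 1.44 ± 0.048 (SD, n = 2), therefore rests on counts that could be very low, and the counts in lowest terms cannot settle how low. The pair test nevertheless took the scaled counts here, with a counting error of 0.17 for the difference. In lowest terms the error of the replicate 1 score alone was 1.67.

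The widest domains of chromosome 4 were partly the same places. The widest, at 1045894 to 1053698, spanned 7805 bp with a combined score of 1.02. Replicate 2 held it as a single region of 7709 bp with a score of 1.16, whereas replicate 1 split it into pieces at 1046047 to 1049849, which scored 1.12, and at 1050487 to 1053511, which scored 0.71. The third widest, at 148758 to 154158, was split in replicate 1 as well, into a piece of score 0.65 and a piece of score 1.11, and was a single region with a score of 1.10 in replicate 2. Of the 48 regions found in both replicates, 3 were split in replicate 1, 1 was split in replicate 2 and 44 matched one to one.

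Regions that one replicate lacked were mostly weaker ones. The 5 regions of replicate 1 without a partner scored between 0.41 and 0.71, and the 10 of replicate 2 scored between 0.38 and 0.92. Combined scores on chromosome 4 had a median of 0.85 for regions in both replicates, 0.39 for those in replicate 2 only and 0.32 for those in neither, with median widths of 3258 bp, 1721 bp and 1107 bp. The highest combined score of the chromosome went against this order and is named after its value was seen. It was 1.93 at 613528 to 614806, in neither replicate, and stood for 21 over 5 in lowest terms, with an interval of 0.48 to 3.69.

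Among the heterochromatic sequences, XHet is described first, because it was the densest. All of its 12 combined-list regions lay between 60108 and 133930 of 204112 bp, and 9 of them were in both replicates. From 83692 to 127144 the regions followed each other at an almost constant step. The 8 regions there began 5784, 5958, 5996, 5968, 5836, 5712 and 5918 bp apart, a narrow range beside steps of 3370 to 14222 bp on the rest of XHet. The even spacing was noticed after the values were seen. Replicate 2 gave the same 8 regions with steps of 5771 to 6067 bp. Replicate 1 lacked the fifth of the series, and its other steps there were 5637 to 5987 bp with 1 step of 11881 bp across the missing region.

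The members of this series were alike in width and modest in score. Their combined-list widths were 1909 to 2335 bp, and their combined scores ran from 0.45 at 113234 to 115142 to 0.97 at 89476 to 91810. The strongest, at 89476, scored 0.76 in replicate 1 and 1.18 in replicate 2. The next, at 118946 to 121246, went the other way, with 1.21 in replicate 1 and 0.79 in replicate 2, and its interval in the combined list was 0.57 to 1.36. Neither difference passed the test of paired scores: over n = 5115 pairs of the genome, the smallest p on XHet was 0.0867 (normal approximation on counts in lowest terms) and the smallest Benjamini-Hochberg adjusted p was 0.997. The order of strength within the series was therefore not settled by these replicates.

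Outside the series, the XHet regions at 60108 to 62624 and 74330 to 77376 scored 0.72 and 0.61 in replicate 1 and 0.72 and 0.77 in replicate 2. The 2 regions found in neither replicate, at 80322 to 81442 and 132930 to 133930, scored 0.38 and 0.46.

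**Figure D3:**
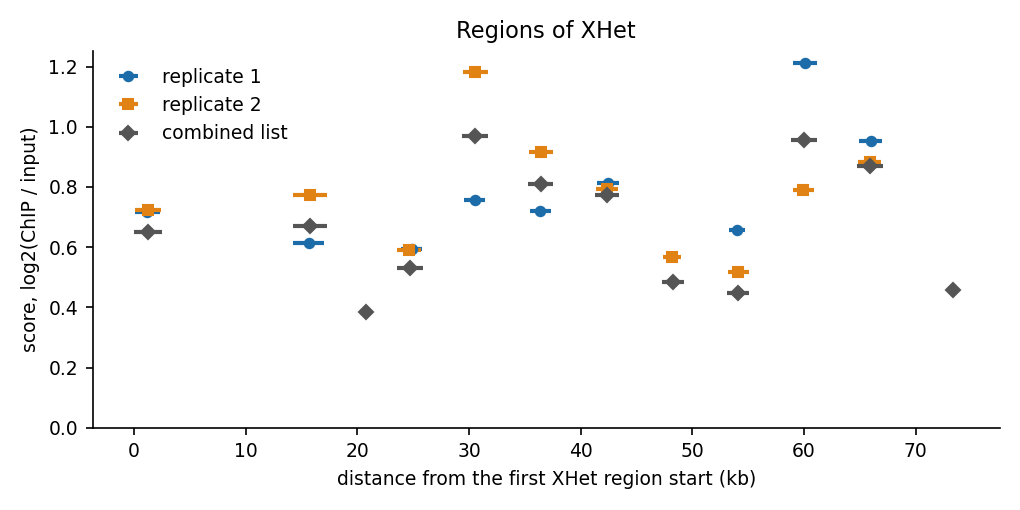
Score (y axis, log2 of ChIP over input) of each XHet region against the distance of its centre from the start of the first region (x axis, kb), with horizontal bars for region width, in replicate 1, replicate 2 and the combined list. From about 25 to 66 kb the regions stand at near-equal steps of 5712 to 5996 bp in the combined list, and replicate 1 lacks the region near 48 kb.

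On 2RHet, the longest heterochromatic sequence, both replicates held 17 regions, of which 16 were shared. The strongest of these lay at 368748 to 371798. It scored 1.60 in replicate 1 and 1.91 in replicate 2. Its combined score was 1.75, where it stood for at least 1929 ChIP and 520 input reads. The next region along the sequence, at 389430 to 392564, scored 1.44 in each replicate and 1.39 in the combined list. These 2 regions were close to each other on a sequence whose median gap was 107398 bp in replicate 1 and 74403 bp in replicate 2.

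A 2RHet region at the other end of the range stood out in its input and is named after its values were seen. At 1261412 to 1263408 it was in both replicates with scores of 0.31 and 0.23, the lowest of the sequence in each. Its input count was at least 597 per kb in the combined list, against at most 473 per kb, in lowest terms, in any region of the large arms. In lowest terms 1 other region of the combined list exceeded 500 input reads per kb, on U at 6335994 to 6338032 with at least 576 per kb, and it too was in both replicates with low scores, 0.32 and 0.28.

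On 3LHet, replicate 1 held 19 regions and replicate 2 held 24, with median scores of 0.95 and 0.96. The strongest shared region by combined score, at 680592 to 682980, scored 1.39 in replicate 1 and 1.27 in replicate 2. Its combined score of 1.28 stood for 8 over 3 in lowest terms, and the interval of -0.78 to 3.82 shows that the lowest terms alone say little here. Replicate 1 gave at least 101 ChIP and 34 input reads for the same site. The next, at 2189368 to 2192214, was firmer, with scores of 1.31 and 1.28 and a combined score of 1.24 from at least 2140 ChIP and 823 input reads. A weaker replicate 2 region, at 2192140 to 2193516, overlapped its right edge. Most of that region lay in the next combined-list region, at 2192310 to 2194420. The widest heterochromatic region of the combined list was on this sequence as well, 7695 bp at 600058 to 607752, and was split in 2 in each replicate.

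On 3RHet the shared regions lay in one part of the sequence. All 9 fell beyond its midpoint, from 1522664 onwards, while regions in neither replicate were divided 4 and 4 by the midpoint. The strongest shared region, at 1767336 to 1770302, scored 1.92 in replicate 1 and 1.74 in replicate 2, with a combined score of 1.79 (interval 1.51 to 2.07). The region at 1822542 to 1825830 scored 1.23 in replicate 1 and 1.51 in replicate 2. Between them lay the region at 1806996 to 1811972, which scored 1.26 and 1.37, so that 3 of the 9 shared regions, each above 1.2 in both replicates, followed each other directly.

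On 2LHet each replicate held the same 2 regions, and both were wide. The region at 30810 to 36018 scored 1.07 and 1.16, and that at 167136 to 171996 scored 1.34 and 1.37, with widths of 4817 bp and 4196 bp in replicate 1 and 5056 bp and 4901 bp in replicate 2. The 2 further 2LHet regions of the combined list, in neither replicate, scored 1.55 and 1.70 and stood for 29 over 9 and 25 over 7 in lowest terms. YHet, from the largely repetitive Y chromosome, held 0 regions in the replicate lists. Its 2 regions of the combined list scored 0.89 at 262700 to 264338 and 0.47 at 304714 to 306320. Neither had a partner in a replicate, and the interval of the second, -0.13 to 1.08, included 0.

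Over all heterochromatic sequences the replicates had median scores of 0.91 and 0.94, a mean of 0.93 ± 0.019 (SD, n = 2). The single sequences ranged from 0.72 and 0.78 on XHet to 1.21 and 1.26 on 2LHet, which has only 2 regions. On 3RHet the medians were 1.05 and 1.12, and on 2RHet they were 0.90 and 1.06.

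U held the strongest reproducible region of all these sequences. At 4251870 to 4254188 it scored 1.99 in replicate 1 and 2.09 in replicate 2. Its combined score was 2.05, with an interval of 1.68 to 2.44. In lowest terms the replicate 1 score stood for only 9 over 2, with an interval of -0.28 to 5.24. The replicate 2 score stood for 101 over 22, with an interval of 1.41 to 2.83. Of the 27 combined-list regions with a score over 2 in the whole list, this region was the 1 found in both replicates. The next on U, at 1101070 to 1104996, scored 1.39 and 1.48, and the region at 3440946 to 3445606, the widest of U at 4661 bp, scored 1.46 and 1.50. The regions at 6832434 to 6834640, with 0.95 and 1.33, and at 6012792 to 6016836, with 1.00 and 1.25, followed. Replicate 2 was the higher of the pair at all 5, and it was higher at 71.0% of the pairs of the whole list.

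Most U regions of the combined list were of another kind. The 60 that neither replicate held had a median score of 1.12 and a median width of 1098 bp, beside 0.83 and 2467 bp for the 19 in both. Replicate regions were never under 1301 bp wide, and 43 of these 60 were; 33 of the 60 stood for 10 or fewer input reads in lowest terms. Whole-list regions in neither replicate had a median score of 0.36, and 96 of 1720 stood for 10 or fewer input reads in lowest terms. Narrow width was common among them as well: their median was 1267 bp, and 932 of the 1720 were under 1301 bp. On chromosome 4 this held for 11 of the 14 in neither replicate. Both of the highest on U scored 3.56, from 13 over 1, and lay at 4421798 to 4422878 and at 7260826 to 7261974. Next came 8619298 to 8620304, which scored 3.45 from 12 over 1. Their intervals ran from 0.83 to 8.97 for the first pair and from 0.69 to 8.86 for the next, and all include the U median of 0.97.

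Scores with a single input read in lowest terms recurred. On U and the heterochromatic sequences 19 combined-list regions had a denominator of 1, of the 40 in the whole list, and 17 of them lay on U. Their numerators ran from 2 to 13 and their widths from 1001 to 1837 bp. None of the 19 was in either replicate. In the combined list of U the score fell as input per kb in lowest terms rose (Spearman's rho -0.83 over 93 regions), a relation that the denominator shared by both measures helps to make. The same value was -0.25 over the 75 regions of chromosome 4.

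**Figure D4:**
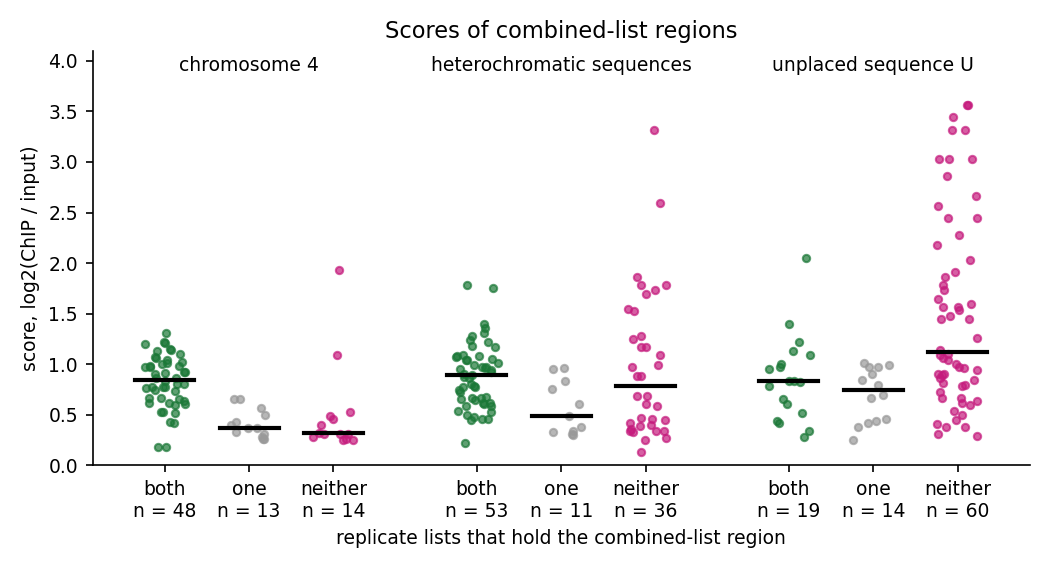
Score (y axis, log2 of ChIP over input) of each combined-list region, grouped by whether both replicates, one replicate or neither held it (x axis), for chromosome 4, the heterochromatic sequences and U, with black bars at the medians. On chromosome 4 the regions in neither replicate have the lowest median, 0.32, while on U they have the highest, 1.12, with scores up to 3.56.

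The heterochromatic sequences stood between these patterns. Their 53 regions in both replicates had a median score of 0.89 and a median width of 3047 bp, and their 36 in neither had a median of 0.78 and 1141 bp. Of the 36, 24 were under 1301 bp wide and 10 stood for 10 or fewer input reads in lowest terms. The order of these medians changed between sequences. On 3LHet it was 0.90 for both and 1.63 for neither, and on 2LHet 1.19 and 1.62. On 3RHet it was 1.04 and 0.47, on 2RHet 0.91 and 0.69, and on XHet 0.77 and 0.42. A similar case in a replicate list was the 2RHet region at 772364 to 773664 of replicate 2, the highest score of that list at 3.80, which stood for 15 over 1 and was absent from replicate 1 and from the combined list.

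Where the replicates paired, their scores followed each other. Reciprocal best overlaps gave 48 pairs on chromosome 4, 54 on the heterochromatic sequences and 19 on U. Replicate 2 minus replicate 1 had a median of 0.071 on chromosome 4 (range -0.32 to 0.45), 0.037 on the heterochromatic sequences (-0.42 to 0.42) and 0.038 on U (-0.46 to 0.38), beside 0.086 on the large arms. The value of 0.45 came from the split region at 148758. There a replicate 1 piece of 2550 bp was paired with the whole replicate 2 region of 5316 bp. Spearman's rho across pairs was 0.89 on chromosome 4, 0.86 on the heterochromatic sequences and 0.86 on U, as a description across regions that share 2 libraries. The large arms had 0.83. Among the single sequences XHet had the lowest rho, 0.62 over 9 pairs, with a Pearson correlation of 0.26. On 3LHet rho was 0.79 over 18 pairs, also below the large arms.

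No paired region was called different between the replicates. The test was a normal approximation on recovered counts, scaled on the arms and chromosome 4 to the typical input density. A shift of the median was removed. After Benjamini-Hochberg adjustment over all 5115 pairs, 0 of the 121 pairs on these sequences had an adjusted p under 0.05. Of all pairs 0% did. At an unadjusted p under 0.05 there were 5 of 121, beside 4.32% of all pairs. All 5 were among the 48 pairs of chromosome 4, or 10.4% of them. They include the split region at 148758, where a piece was paired with a whole region. Counts off the arms and chromosome 4 entered in lowest terms, which makes their test conservative, so a difference was harder to detect there. On the log2 scale the median counting error of a difference was 0.13 on chromosome 4, from scaled counts. It was 0.20 on the heterochromatic sequences and 0.21 on U, from lowest terms. These errors, and the shares at an unadjusted p under 0.05, are therefore not on equal terms between chromosome 4 and the other sequences.

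**Figure D5:**
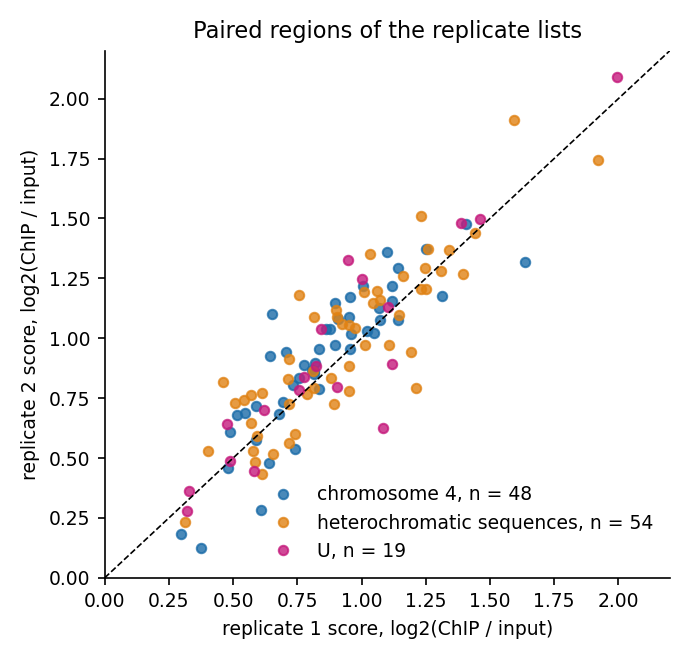
Score in replicate 2 (y axis) against score in replicate 1 (x axis), both as log2 of ChIP over input, for 48 pairs of regions on chromosome 4, 54 on the heterochromatic sequences and 19 on U, with the line of equal scores dashed. The points lie along the line up to the U region that scored 1.99 and 2.09.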

How the data were processed

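ChIP-seq of NURF301 gave 3 lists of enriched regions, for ChIP replicate 1, ChIP replicate 2 and the replicate set. The submitters' processing notes name Bowtie 0.12.7. The file headers name FlyBase r5. The sources used here do not give the region caller, its threshold or how the combined list was made. The scores that the authors deposited were read as log2 ratios of counts: after division of 2 to the power of the score by a constant per list (0.885, 0.927 and 0.908), 100% of regions gave fractions (denominators up to 3000, relative tolerance 2e-10), and only 0.197%, 0.222% and 0.122% did so under a wrong constant. That numerators are ChIP reads is an assumption, and whether a small number was added is unknown.

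From the lists, densities over header lengths, covered length, median scores and widths, overlaps (1 bp or more) and gaps were computed with numpy 2.4.6, pandas 2.3.3 and scipy 1.17.1. Wilson intervals are given for shares, and SDs over 2 replicates. For paired scores, counts on the arms and chromosome 4 were scaled to the typical input density. The pair test was also run on simulated Poisson counts drawn around these scaled counts, which takes the scaling as true and so cannot check it. Named regions were the 5 highest and 3 widest of chromosome 4, the 2 highest of each heterochromatic sequence (all, where it had 2 or fewer) and the 5 highest of U, among combined-list regions in both replicates, and the 3 highest on U and the heterochromatic sequences in neither. Others are named as wide, weak, split or neighbouring cases after their values were seen. Members and lists were chosen with earlier results of these data known. Alternatives were each replicate alone, the combined list, merging below 500 bp, a score at or above the 25th percentile, a 50% reciprocal overlap, a tolerance of 500 bp and a minimum width. The gene table at hand is of release 6 and was not used.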

Additional observations from a re-analysis of the deposited data

How the results depend on the processing

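Of the recomputed values, 44 moved by less than the replicate SD, stayed within the Wilson interval or kept their count, and 24 moved further. The Wilson interval takes the regions of a list as independent and widens with fewer regions. It is thus a different limit from an SD over 2 lists. Leaving out either replicate can never move the mean density, median score or width by as much as the replicate SD. Those alternatives were therefore bound to fall among the 44, and their place there says nothing about stability. The combined list in place of the replicate lists gave 55.5 regions per Mb, a median score of 0.66 and no shift in width on chromosome 4, 10.8 per Mb, 0.82 and 2197 bp on the heterochromatic sequences, and 9.25 per Mb, 0.97 and 1317 bp on U, where the mean over replicates was 2.74 per Mb. A score at or above the 25th percentile gave 34.8 per Mb and 2765 bp on chromosome 4, 5.76 per Mb, 1.00 and 2468 bp on the heterochromatic sequences, 2.34 per Mb, 0.92 and 2072 bp on U, and a share of chromosome 4 regions in both replicates of 79.3%. Merging regions less than 500 bp apart gave 39.6 per Mb and 2689 bp on chromosome 4. A lower limit on the score cannot raise the density or lower the median score, and merging cannot raise the density. The direction of those shifts was therefore fixed in advance, and only their size is informative. With combined-list regions no narrower than those of the replicates, the share in both replicates became 78.7% on chromosome 4, 70.7% on the heterochromatic sequences and 39.6% on U. Over regions with more than 10 input counts in lowest terms, an alternative chosen after seeing the data, the U share was 31.7%. Matching to a single replicate, the shares were 68.0% to 77.3% on chromosome 4, 56.0% to 61.0% on the heterochromatic sequences and 26.9% to 29.0% on U; with one replicate left out, densities were 40.7 to 43.6, 6.25 to 6.79 and 2.69 to 2.79 per Mb, median scores 0.81 to 0.90, 0.91 to 0.94 and 0.84 to 0.86, and median widths 2515 to 2533 bp, 2285 to 2313 bp and 2006 to 2053 bp. The order of U below the heterochromatic sequences and of these below chromosome 4 in the share found in both replicates was kept under each of these alternatives. All of them count regions of the combined list. With the replicate lists matched to each other, the heterochromatic sequences had 93.1% and 87.3%, above chromosome 4 at 90.9% and 83.1%. U was the lowest there too, at 70.4% and 67.9%. The count of paired regions called different was 0 with a 50% reciprocal overlap and with no shift removed (4 of 118 and 8 of 121 at an unadjusted p under 0.05). No paired analysis was possible because each ChIP library enters as a ratio to its own input and no groups are compared. Mappability and total reads are not in the lists, and lowest terms hide the true counts, so low-input regions of U cannot be ranked by score.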

Other observations

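The even steps on XHet were compared with the other sequences after they had been seen. A run was defined as consecutive regions whose start-to-start steps differ by at most a factor of 1.1. In the combined list the longest run was the 8 regions of XHet, with a median step of 5918 bp and an SD of 107 bp over its steps, although XHet has only 12 regions. On the large arms, with 1383 to 1918 regions each, the longest run held 5 regions, on the X at 21481532 to 21508266, with steps of 6020 to 6360 bp. Replicate 2 gave 8 regions on XHet and at most 5 on the large arms, there on 2L. In replicate 1, which lacks 1 region of the XHet series, the longest run was on the X at 21474924 to 21508191, with 6 regions and steps of 6131 to 6615 bp, and the longest on XHet held 4 regions. The X run has a median step of 6124 bp in the combined list. A step of this size was not particular to the X: the longest run on 3L there, of 4 regions, has a median step of 5992 bp. No test of chance was made, and the sequence under these regions was not analysed here.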
